A study of Mus musculus with 8 samples.

Results

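Structural cluster 2 is a group of endothelial cells that carry Car4, the gene for a carbonic anhydrase held on the outer face of the cell membrane, in grafted mouse lungs. Its members are the cells that the authors' table of cells places under number 2 of the 11 clusters of structural cells, 529 of 5514 structural cells and of 20778 cells in all. The cells came from 8 left lung grafts taken 1 month after orthotopic lung transplantation (LTx) into male C57BL/6 (B6) recipients that received no immunosuppression. In 5 grafts, called B6→B6, donor and recipient were both B6, and these grafts do not reject. In the other 3, called HLA→B6, the donor was of the C57BL/6 line that carries the transgene Tg(HLA-A2.1)1Enge, which codes for the human class I molecule HLA-A2, and these grafts develop bronchiolitis obliterans syndrome (BOS), the airway form of chronic rejection. No source used here gives the age of the mice. All 3 rejecting grafts and none of the others came from the transgenic donor strain, so donor strain and rejection cannot be told apart. Whether a given cell stemmed from the donor or the recipient was not analysed here.

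The wall of the lung alveolus holds 2 kinds of capillary endothelial cell. Aerocytes are large, flat cells that lie against the alveolar epithelium at the gas exchange surface. They carry Car4, Ednrb (the endothelin B receptor), Apln (the peptide ligand apelin) and the transcription factor Tbx2. General capillary cells carry Aplnr (the receptor of apelin), Gpihbp1 (the anchor of lipoprotein lipase), Plvap (the protein of the diaphragms of fenestrae and caveolae) and the receptor tyrosine kinase Kit, and serve as progenitors in repair. Carbonic anhydrase 4 turns bicarbonate into carbon dioxide at the luminal surface. Interferon-γ raises class I and class II molecules of the major histocompatibility complex (MHC) on endothelial cells, through which grafts are recognized by T cells.

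Each graft gave 1 library of droplet sequencing (10x Genomics, 3′ ends), in which a count is a unique molecular identifier (UMI), that is, a transcript molecule. Cluster 2 held 34, 31, 185, 170 and 18 cells in the 5 B6→B6 grafts and 14, 52 and 25 cells in the 3 HLA→B6 grafts, written here and throughout in the order of the replicate numbers. Their summed counts ran from 31239 to 338877 UMIs per mouse, with a median of 1869 UMIs and 1086 genes per cell. Clusters 0 and 1, the larger endothelial clusters, were shallower, with medians of 1068.5 and 886 UMIs per cell in 2364 and 1347 cells. HLA→B6 replicate 3 was shallowest in cluster 2 (median 919 UMIs per cell, against 1498.5 to 2632.5 in the other 7 mice), and HLA→B6 replicate 1 had the fewest cells. Cell barcodes were shared between libraries beyond chance in 5 of 28 pairs of mice (Poisson test, adjusted p under 0.01). These pairs link HLA→B6 replicate 2 and the first 3 B6→B6 replicates. At a threshold of 0.05, B6→B6 replicate 1 with HLA→B6 replicate 1 and B6→B6 replicate 3 with HLA→B6 replicate 2 would also pass (adjusted p = 0.0138 each). HLA→B6 replicate 1 would then join the linked set. Among cluster 2 cells 12 (2.27%) shared a barcode with another mouse, against 4.88% of all cells. Scrublet marked 4 of the 529 cells as doublets, and they were kept.

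The deposited name of this cluster is "Epithelial cells (2)", and most of the epithelial genes shown here went against it. The paper rests the name on Scgb1a1 and Sftpc, which it reports for clusters 1 and 2. Their levels in cluster 2 are not given singly here, so the genes below do not bear on that basis of the name. Epcam, the adhesion molecule of epithelia, had a UMI in 0 of 529 cells, which allows a share of cells with such a UMI (not of cells that express the gene) of up to 0.567%. In structural cluster 8, 35.3% of the cells had one. Pooled over the cells of cluster 2, Krt8 (a keratin) and Cdh1 (E-cadherin) were each at 1.88 CPM (a gene's counts scaled to a fixed library total) and Ager, a marker of type 1 alveolar cells, at 15.04, against 1153, 138 and 2263 in cluster 8. Hopx, a homeodomain gene also known from type 1 alveolar cells, was the exception at 319 CPM, against 241 in cluster 8 and 34.1 in cluster 0. Of the 529 cells, 22 (4.16%) had a UMI of at least 3 of the 26 epithelial genes measured. In cluster 2, 21 of the 26 averaged under 10 CPM. Epcam, Krt8 and Cdh1 stand outside the naming rule, which takes the highest of a list in cluster 2. The sum of all 26 genes averaged 573 CPM (SD 345) over the 8 mice, beside 648 (SD 527) for cluster 0 and 928 (SD 732) for cluster 1. Scgb1a1 was also found outside structural cells: T cells of B6→B6 replicate 1 held 4948 CPM, and those of B6→B6 replicate 2 held 0. Whether free RNA gave such counts was not tested.

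Car4 and Pecam1 (the adhesion molecule CD31 of endothelial cells) were found throughout the cluster. A UMI of Car4 was present in 508 cells (96.0%), of Pecam1 in 479 (90.5%) and of both in 467 (88.3%). For Car4 the shares were 23.7% in cluster 0, 17.4% in cluster 1 and 0.848% in T cells, which should lack it and had a median depth of 1648 UMIs. With each cell thinned to 500 UMIs these 4 shares were 86.2%, 13.7%, 10.2% and 0.419%. Ednrb was seen in 358 cells (67.7%), against 0.127% of cluster 0, 0.891% of cluster 1 and 0.138% of T cells. Of 15 aerocyte genes a cell showed a median of 10, and 523 cells (98.9%) showed at least 3. The cluster is therefore called aerocyte-like below.

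Against clusters 0 and 1, which hold the general capillary genes, cluster 2 was set apart by many genes in every mouse. These clusters were drawn from the same counts, so the differences are a description with no test. The log2 ratio of CPM (each CPM raised by 1) was taken within each mouse and averaged over the 8 mice, and a gene was counted when it was at least 2-fold apart on average and in the same direction in all 8. By this rule 260 of 15181 genes (1.71%) were higher and 322 (2.12%) lower than in cluster 0. Against cluster 1, 296 of 14791 (2%) were higher and 234 (1.58%) lower. Both lists shared 184 higher genes, 70.8% of the list against cluster 0 and 62.2% of that against cluster 1. The 116 shared lower genes were 36.0% and 49.6% of the lists.

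All 15 aerocyte genes were higher in every mouse against both clusters, with median log2 ratios of 4.66 and 5.54 beside -0.22 and -0.15 over all genes. Car4 was between 3861 and 7074 CPM in the 8 mice (median 4988), against 86.8 to 505 in cluster 0 and 0 to 340 in cluster 1, so the ranges were wide apart. Ednrb lay between 344 and 1109 CPM, with 0 to 9.85 and 0 to 20.6 in the other 2 clusters. Fibin (fin bud initiation factor) ran from 58.6 to 1932 CPM, the widest spread of the group, and reached 4.14 in cluster 0. Apln was 269 to 750 CPM, against 0 to 69.9 and 0 to 48.7. The transcription factor Tbx2 was 156 to 822 CPM, and its relative Tbx3 was 594 to 1228, with 69.9 to 440 in cluster 0. Igfbp7, a secreted protein that binds insulin-like growth factors, was the most abundant of the 15 at 5404 to 10693 CPM. Emp2, a membrane protein of the epithelial membrane protein family, was 1633 to 3981.

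The genes of general capillary cells went the other way. Of 13, 10 were lower against cluster 0 and 9 against cluster 1, and 0 were higher in either (median log2 ratios -4.54 and -4.74). Aplnr was at 0 to 14.8 CPM, with 62.8 to 1049 in cluster 0 and 82.5 to 367 in cluster 1. Plvap was at 0 to 128 CPM, against at least 605 in every mouse of cluster 0. Kit was at 0 to 20.7 CPM and Cd93, a receptor of the endothelial surface, at 0 to 192, and neither reached its range in cluster 0 (164 to 560 and 827 to 1194). Gpihbp1 was the least separated, at 224 to 1125 CPM against 1609 to 3713. It was seen together with Car4 in 178 cells (33.6%), and Plvap with Car4 in 20 (3.78%).

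**Figure D1:**
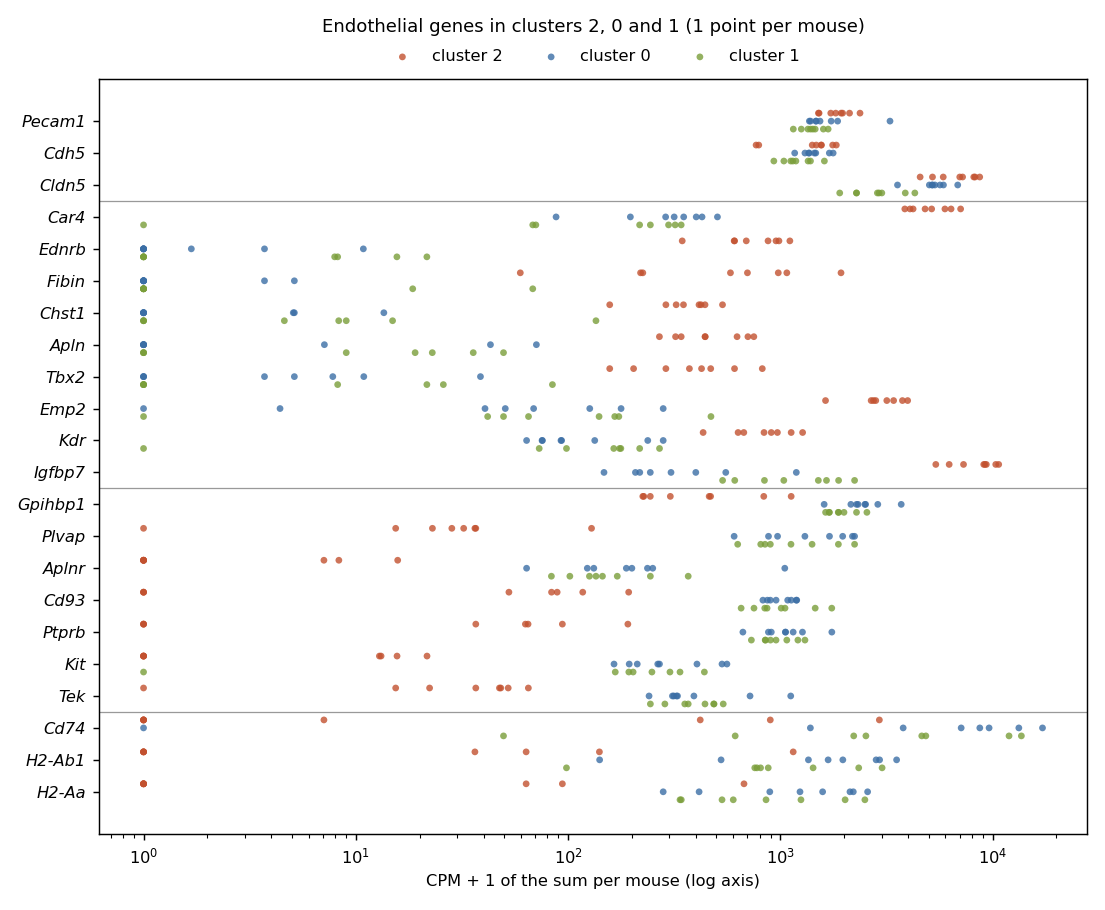
CPM plus 1 (log axis) of each mouse's summed counts for 22 genes in clusters 2, 0 and 1, with 1 point per mouse. From top to bottom stand genes of all endothelium, which overlap between the clusters, aerocyte genes, which lie higher in cluster 2, general capillary genes and MHC II genes, which lie lower in it; Car4 is at 3861 to 7074 CPM in cluster 2 and at most 505 elsewhere.

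Genes of all endothelium were shared by the 3 clusters. Pecam1 was at 1872 ± 293 CPM (SD, n = 8 mice) in cluster 2, with 1766 and 1413 in clusters 0 and 1. Cdh5, the cadherin of endothelial junctions, was at 1396, 1449 and 1221. Of 20 such genes 1 was higher and 3 lower against both. Arterial, venous and lymphatic lists gave no higher gene against either cluster, and Efnb2, Cxcl12 and Sox17 were the arterial genes with most counts.

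The genes with the largest differences outside these lists were of mixed kinds. Higher against both clusters were Ncam1 (a neural cell adhesion molecule) at 47.7 to 192 CPM with at most 3.61 elsewhere, Enho (the secreted peptide adropin) at 249 to 718, and Xpnpep2 (a membrane aminopeptidase) at 14.8 to 209. AW112010, an interferon-inducible transcript annotated as a long noncoding RNA, was at 1714 to 3512 CPM, against 0 to 535 in cluster 0. Ccdc184, of no role known well enough to state, was at 187 to 576 CPM with at most 8.15 in the other clusters. Lower were Cd81 (a tetraspanin) and Cadm1 (a cell adhesion molecule), both at most 14.8 CPM and at 0 in the median mouse, with log2 ratios of -7.91 and -7.72 against cluster 0. Genes of MHC II were also among the 12 lowest against cluster 0, H2-Aa with a log2 ratio of -7.39 and H2-Ab1 of -6.82. Itga6, an integrin subunit that binds laminin, was at 0 to 51.3 CPM against 323 to 1539. Another carbonic anhydrase went opposite to Car4: Car14 was at 0 to 2.95 CPM, against 52.0 to 350 in cluster 0.

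Genes of endothelial growth and signaling differed in both directions. In the VEGF pathway, which drives endothelial growth, the receptor Kdr (432 to 1273 CPM) and the co-receptor Nrp1 (535 to 1225) were higher, whereas Flt1, the decoy receptor, was lower (69.8 to 192 against 377 to 839) and the ligand Vegfa was at most 32.01 CPM, with 66.3 to 227 in cluster 0. Of 13 genes of that list 2 were higher and 3 lower against both clusters. In the apelin and endothelin systems Apln and Ednrb were higher, and Aplnr and the endothelin gene Edn1 lower in the mean (32.3 CPM, with 777 and 736). The angiopoietin receptor Tek and the phosphatase Ptprb, which acts on it, were lower against both (Tek 0 to 64.0 CPM, Ptprb 0 to 190). Of the Wnt list, Tspan12, a co-receptor for Norrin signaling, was at 512 to 834 CPM and Nkd1, a feedback inhibitor, at 469 to 1132, both higher than in clusters 0 and 1.

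Of 12 genes of leukocyte adhesion, 10 of them in the table, 3 were higher and 1 lower against both clusters, and the list's median log2 ratios were 0.03 against cluster 0 and 0.21 against cluster 1. Icam1 was at 344 to 1359 CPM, against 75.3 to 246 in cluster 0. Icam2 was at 2884 to 3748 and Cd34, a sialomucin, at 930 to 2453, both above every mouse of the other 2 clusters. Cx3cl1, a membrane-bound chemokine, was at 36.6 to 187 CPM, with 0 to 27.1 in cluster 0. Among genes of cell cycle arrest, Cdkn2b was at 14.6 to 143 CPM (at most 22.1 in cluster 0) and Phlda3, a p53 target, at 375 to 811. Mitochondrial transcripts were lower in 9 of 10 against cluster 1 and in 2 against cluster 0, while the median depth of a cell was higher in cluster 2. The part of depth in that difference was not tested.

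Cluster 2 took a smaller share of the cells in HLA→B6 grafts. Of structural cells it made up 10.5%, 23.1%, 24.9%, 14.95% and 17.5% in B6→B6 grafts and 0.701%, 7.47% and 6.60% in HLA→B6 grafts. All 3 rejecting grafts lay below all 5 others, and replicate 1 was lowest. The means were 18.2% ± 5.89 (SD, n = 5) and 4.92% ± 3.68 (SD, n = 3), a difference of -13.3 percentage points (exact permutation test over mice, two-sided, p = 0.0357, the smallest that 8 mice allow). Fewer such cells, more of the others and unequal recovery from the tissue cannot be told apart in a share.

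The groups also did not overlap with the other 2 denominators. Of all cells the mean was 3.94% ± 2.22 against 1.27% ± 0.936, and the nearest mice, B6→B6 replicate 5 (2.07%) and HLA→B6 replicate 3 (2.01%), nearly met. Of the endothelial clusters 0, 1, 2, 5 and 9 it was 24.2% ± 8.60 against 6.39% ± 4.85, with 11.7% in the lowest B6→B6 graft and 9.84% in the highest HLA→B6 graft. Each gave an exact p of 0.0357. Within the libraries linked by the stricter barcode threshold above, the difference was -12.0 percentage points of structural cells and within the others -12.6. The linked set held 1 HLA→B6 graft. Against cluster 0 alone the mean was 42.9% ± 20.6 and 11.3% ± 9.79 of the sum of both clusters, and with exact p = 0.0714 this narrower comparison, chosen after the data were seen, missed the threshold.

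**Figure D2:**
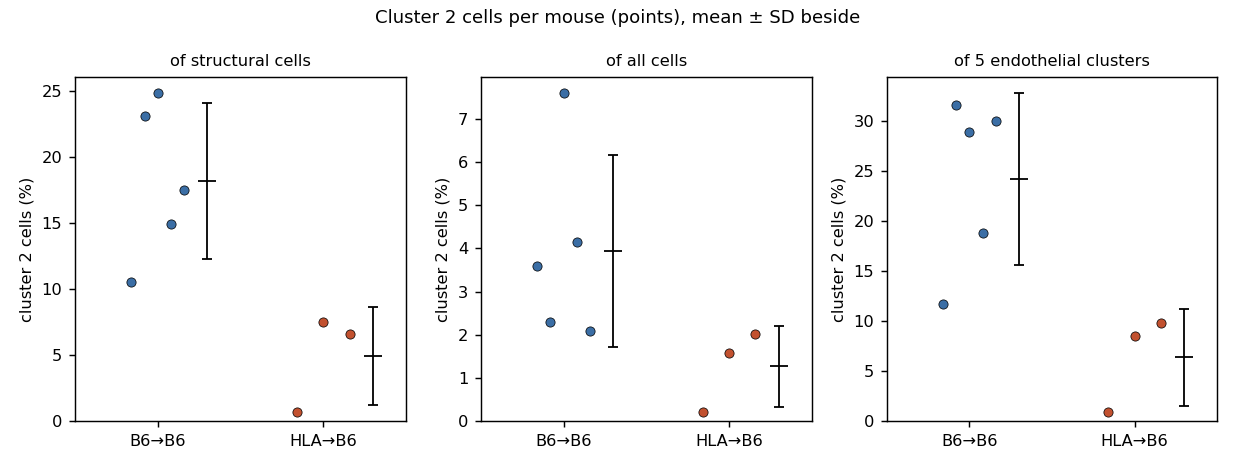
Cluster 2 cells as a percentage of structural cells, of all cells and of 5 endothelial clusters, with 1 point per mouse and the mean ± SD beside the points. The 3 HLA→B6 grafts lie below the 5 B6→B6 grafts in each panel, by the smallest margin for all cells (2.01% against 2.07%).

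Within the cells of cluster 2, counts were summed per mouse and HLA→B6 was compared with B6→B6 by edgeR's quasi-likelihood test, with adjusted p-values (Benjamini-Hochberg) over all 1643 genes tested. At an adjusted p of 0.05, 6 genes (0.365%) were higher in HLA→B6 and 0 (0%) lower. They were Cd74, Tinagl1, Ifi47, F2r, H2-T22 and B2m. At an unadjusted p of 0.05, 94 genes were higher and 116 lower, and DESeq2 called 8 higher and 2 lower. With 14 to 52 cells in a rejecting graft, most differences of 2-fold were beyond reach. In simulated counts of these depths 9.26% of genes changed 2-fold and 92.9% of genes changed 4-fold were called.

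Of these 6, 3 belong to antigen presentation by MHC I or to the response to interferon: B2m, the light chain of all class I molecules, H2-T22, a nonclassical class I heavy chain, and Ifi47, an interferon-inducible GTPase. B2m is on chromosome 2 (GRCm38, 122147686 to 122153083, + strand), H2-T22 on chromosome 17 (36037128 to 36042747, - strand) and Ifi47 on chromosome 11 (49076587 to 49096974, + strand), all protein-coding. Their promoters, from RefSeq on GRCm38.p6, 250 bases before to 50 after the start, are shown because interferon acts on such genes through interferon-stimulated response elements (ISRE) and gamma-activated sites (GAS). Capitals mark each match to GAAANNGAAA on either strand, a core of the ISRE, and the windows are chr2:122147437-122147736 (+ strand) for B2m, chr17:36042693-36042992 (- strand) for H2-T22 and chr11:49076337-49076636 (+ strand) for Ifi47.
B2m: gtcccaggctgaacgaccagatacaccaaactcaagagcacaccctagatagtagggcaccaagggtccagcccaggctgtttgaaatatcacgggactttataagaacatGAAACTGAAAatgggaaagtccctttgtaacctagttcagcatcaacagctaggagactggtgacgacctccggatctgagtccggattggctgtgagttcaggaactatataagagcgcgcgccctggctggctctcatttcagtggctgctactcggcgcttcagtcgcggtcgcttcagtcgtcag
H2-T22: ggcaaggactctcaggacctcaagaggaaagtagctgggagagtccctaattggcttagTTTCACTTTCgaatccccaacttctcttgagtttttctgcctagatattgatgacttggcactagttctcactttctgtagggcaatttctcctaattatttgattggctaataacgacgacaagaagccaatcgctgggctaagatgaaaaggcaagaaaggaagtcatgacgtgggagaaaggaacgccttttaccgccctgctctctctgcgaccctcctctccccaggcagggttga
Ifi47: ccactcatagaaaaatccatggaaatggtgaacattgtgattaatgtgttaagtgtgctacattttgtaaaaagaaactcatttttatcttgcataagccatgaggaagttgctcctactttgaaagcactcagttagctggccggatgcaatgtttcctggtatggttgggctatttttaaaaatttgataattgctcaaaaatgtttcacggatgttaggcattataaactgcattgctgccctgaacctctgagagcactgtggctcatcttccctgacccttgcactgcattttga

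B2m held 1 match, which began 139 bases before the start, and H2-T22 held 1, which began 191 bases before it. Of 27025 genes with a promoter in that collection 943 (3.49%) held one. No match to TTCNNNGAA, the GAS letters, lay in any of the 3 windows, and 8.47% of all promoters held one. The windows of Ifi47, F2r, Tinagl1 and Car4 held neither motif. A match is a description of these letters and not a site.

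B2m stood at 5901, 9126, 8862, 6989 and 7966 CPM in B6→B6 and at 16102, 18386 and 14840 CPM in HLA→B6. Every rejecting graft was far above the highest of the others. The log2 fold change was 1.10 ± 0.16 (SE), that is 2.14-fold (adjusted p = 0.00345). It passed the threshold in all 21 settings tried, with log2 fold changes of 1.01 to 1.18. In clusters 0 and 1 B2m changed by 0.67 in each on the log2 scale, without passing (adjusted p = 0.399 and 0.134).

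H2-T22 was at 131, 216, 156, 140 and 250 CPM in B6→B6 and 448, 527 and 442 CPM in HLA→B6, again with no overlap. It was 2.97-fold higher (log2 1.57 ± 0.27, adjusted p = 0.00989). Near copies of this class I gene exist in the mouse MHC and may share its reads, so the value is uncertain as to the gene. Its call was lost without B6→B6 replicate 3 or 4 or HLA→B6 replicate 2 (log2 1.52, 1.47 and 1.44). Ifi47 was at 71.5, 86.5, 118, 48.6 and 0 CPM against 224, 366 and 233 CPM. It was 3.91-fold higher (log2 1.97 ± 0.40, adjusted p = 0.0406), and overlaps another gene, Olfr56, on its strand. Without B6→B6 replicate 1, 2 or 4 it missed the threshold (log2 1.98, 2.00 and 1.74), and likewise without HLA→B6 replicate 1 or 2 (2.09 and 1.60).

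Of the genes called, only B2m and Cd74 are on the MHC lists and none is on the interferon lists. H2-T22 and Ifi47 were placed with MHC I and interferon by what the genes are and not by a list. Tinagl1 and F2r belong to neither group. Tinagl1 (tubulointerstitial nephritis antigen-like 1) is a secreted protein of the extracellular matrix, on chromosome 4 (130164454 to 130175122, - strand). Its levels were 59.6, 28.8, 35.4, 57.7 and 93.7 CPM in B6→B6 and 448, 403 and 186 CPM in HLA→B6, so even the lowest rejecting graft was above the highest other one. The difference was 7.24-fold (log2 2.86 ± 0.36, adjusted p = 9.73e-04). Without HLA→B6 replicate 2 it no longer passed (adjusted p = 0.238), with a fold change about as large (log2 2.61).

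Clusters 0 and 1 carried Tinagl1 without rejection as well: in cluster 0 it was at 560 to 1125 CPM in B6→B6 and 877 to 1613 in HLA→B6 (log2 0.78, adjusted p = 0.390). F2r, the thrombin receptor PAR1, on chromosome 13 (95601803 to 95618487, - strand), was at 83.4, 159, 100, 54.7 and 156 CPM against 288, 351 and 233 CPM. The groups did not overlap and the difference was 3.27-fold (log2 1.71 ± 0.35, adjusted p = 0.0406), but it passed in 11 of 20 settings. It was lost without B6→B6 replicate 1, 3 or 4 (log2 1.73, 1.70 and 1.41) or HLA→B6 replicate 1 or 2 (1.72 and 1.44). T cells held F2r at 23.7 to 57.5 CPM in the 8 mice and NK cells at 27.2 to 106 CPM.

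Cd74, the invariant chain that guides MHC II molecules, was nearly absent from cluster 2 without rejection. Its counts were 0, 0, 0, 2 and 0 in B6→B6, against 28, 400 and 18 in HLA→B6. It was found in 5 of 14, 20 of 52 and 10 of 25 cells of the rejecting grafts, and 141 of the 400 counts in replicate 2 (35.3%) came from 1 cell. Pooled, 446 of 210801 UMIs against 2 of 853224 gave a ratio of 903 (95% interval 248 to 7476, which covers counting error only). Without replicate 2, 46 of 74232 UMIs gave a ratio of 264 (69.1 to 2248). The edgeR test gave adjusted p = 0.00364, and its fitted log2 fold change (8.87) depends on the prior count. Without B6→B6 replicate 4, the mouse with the 2 counts, the adjusted p was 0.226. It was 0.075 with only mice of at least 20 cells and 0.261 with only cells of at least 500 UMIs, and past the threshold in 18 of 21 settings.

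**Figure D3:**
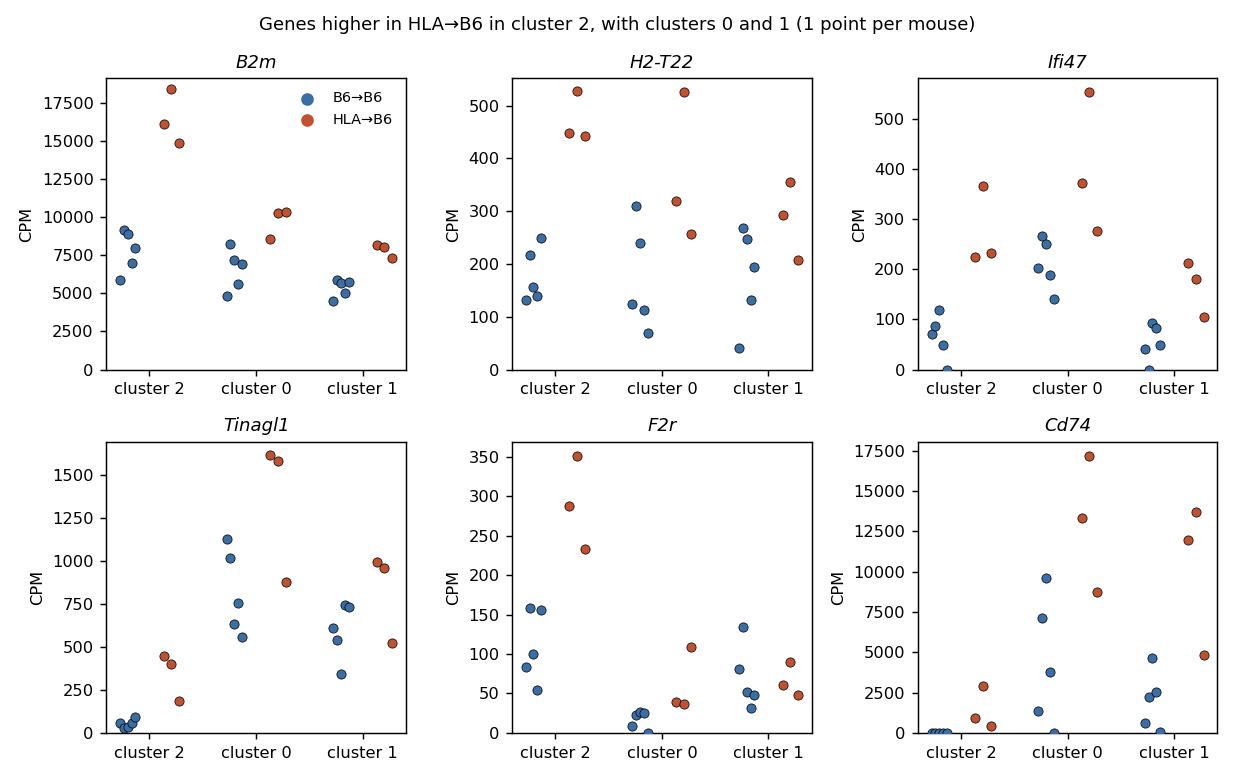
CPM (linear axes from 0) of the 6 genes that passed the test in cluster 2, for each mouse in clusters 2, 0 and 1, B6→B6 in blue and HLA→B6 in orange. In cluster 2 the groups do not overlap for any of the 6, while Tinagl1 and Cd74 in clusters 0 and 1 are already high in B6→B6 mice.

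The other MHC II genes were too low for the test, and their counts had the same direction. H2-Ab1, a class II β chain, had 0, 0, 12, 0 and 2 counts in B6→B6 and 0, 157 and 6 in HLA→B6. H2-Aa, the partner α chain, had 0, 0, 0, 0 and 2 against 0, 92 and 4. HLA→B6 replicate 1 had none of either, so the groups overlapped and replicate 2 held most of the counts. Pooled ratios were 194 for H2-Aa (52.3 to 1627), 47.1 for H2-Ab1 (27.3 to 88.1), 22.3 for H2-DMa (7.56 to 88.9) and 17.2 for H2-DMb1 (5.61 to 70.3), the last pair being the chains of the peptide loading factor H2-DM. Without replicate 2 they were 22.99 for H2-Aa (3.29 to 254), 4.93 for H2-Ab1 (1.55 to 13.6) and 8.62 for each H2-DM gene (1.26 to 50.96). Ciita, the activator of class II transcription, had 3 counts against 6 (ratio 8.10, 1.73 to 50.02), and without replicate 2 the ratio was 3.83 (0.0730 to 47.7).

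By cell, a UMI of at least 1 of the 7 MHC II genes was present in 0 of 34, 0 of 31, 11 of 185, 11 of 170 and 3 of 18 cells of the B6→B6 grafts (0% to 16.7%). It was present in 7 of 14, 35 of 52 and 17 of 25 cells of the HLA→B6 grafts (50%, 67.3% and 68%). The groups did not overlap, but the 95% intervals of the nearest grafts did. These were 5.84% to 39.2% for B6→B6 replicate 5 and 26.8% to 73.2% for HLA→B6 replicate 1. Pooled shares were 5.71% and 64.8%, whereas in cluster 0 they were 81.7% and 99.4% and in cluster 1 79.1% and 97.7%. With cells thinned to 500 UMIs the shares were 0%, 0%, 1.59%, 1.65% and 4.95% in B6→B6 and 29.95%, 49.6% and 36.5% in HLA→B6, in 416 and 81 cells deep enough.

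T cells, which in mice lack MHC II, gave the background. At 500 UMIs 0.820% to 5.19% of them had such a UMI in B6→B6 and 2.58% to 4.08% in HLA→B6 (unthinned 2.23% to 9.73% and 8.81% to 12.2%, with pooled median depths of 1492 and 1731 UMIs, against 1872.5 and 1859 in cluster 2). The thinned shares of cluster 2 in B6→B6 were thus at the level of T cells, while every HLA→B6 graft was far above it. In cluster 0 the thinned shares ran from 21.0% to 93.5% in B6→B6, where single grafts differed widely, and from 95.6% to 99.5% in HLA→B6.

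Transcripts of other cell types moved beside these genes. In cluster 2 the summed level of 12 macrophage and monocyte genes was 0 to 62.5 CPM in B6→B6 and 160 to 581 CPM in HLA→B6, and of 8 B cell and plasma cell genes 2.95 to 57.7 and 154 to 395. Lyz2, Ighm and Igkc held most of this, while Csf1r, Adgre1, Mrc1, Chil3, Fcgr3, Itgam, Ccr2 and Mzb1 had 0 counts in the HLA→B6 cells. The 6 genes of all leukocytes summed to 0 to 91.2 and 87.9 to 116 CPM, T and NK cell genes to 0 to 222 and 0 to 32.01, and mesenchymal genes to 0 to 33.4 and 36.6 to 160. In an alternative added after the data were seen, every cell with a UMI of any of the 6 genes of all leukocytes was left out. Cells with Lyz2, Ighm or Igkc but none of those 6 stayed in, so the setting does not remove these transcripts. Of the 6 genes called with all cells, 5 passed by edgeR. Among them were Cd74 (adjusted p = 2.05e-08), B2m (adjusted p = 0.00362) and Ifi47 (adjusted p = 0.0441). F2r did not pass (log2 1.40, adjusted p = 0.243).

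Cd74, H2-Aa, H2-Ab1, H2-Eb1, Lyz2, Ighm and Igkc were among the genes from which the authors estimated free RNA with SoupX, and B2m, H2-T22, Ifi47, Tinagl1, F2r and the H2-DM genes were not. No source used here says whether the deposited counts come from before or after that step. In T cells Cd74 was at 17.1 to 104 CPM in B6→B6 and 0 to 106 CPM in HLA→B6, below the 419 CPM of the lowest HLA→B6 mouse in cluster 2. In HLA→B6 replicate 1 NK cells held Cd74 at 361 CPM, against 896 in cluster 2. The part of free RNA was not tested.

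**Figure D4:**
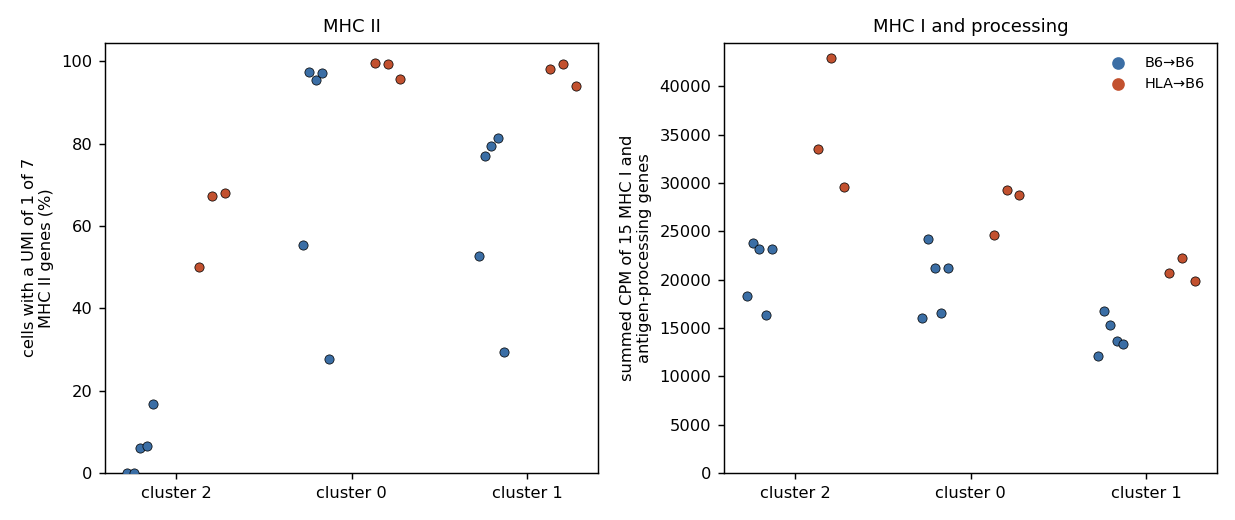
For each mouse, the percentage of cells, not thinned, with a UMI of at least 1 of 7 MHC II genes (left) and the summed CPM of 15 genes of MHC I and antigen processing (right) in clusters 2, 0 and 1, B6→B6 in blue and HLA→B6 in orange. MHC II is at most 16.7% in B6→B6 mice of cluster 2 and at least 50% in HLA→B6 mice, and MHC I is higher in HLA→B6 with no overlap in each of the 3 clusters, most narrowly in cluster 0 (at most 24178 against at least 24635 CPM).

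Of the 15 genes of MHC I and antigen processing, 13 could be tested, 1 (B2m) passed, and all 13 had a positive log2 fold change (median 0.62, beside -0.01 over all genes), also with DESeq2 and its size factors. Their summed level was 16370 to 23830 CPM in B6→B6 and 29540 to 42967 CPM in HLA→B6. The sums did not overlap in cluster 0 (at most 24178 against at least 24635 CPM) or in cluster 1 (at most 16800 against at least 19897) either, where all 14 tested genes were positive and 2 passed in each, beside 0.549% and 0.596% of all genes called higher and 0.137% and 0.0852% called lower. H2-K1, a classical class I heavy chain, was at 1752, 2595, 2316, 1595 and 2811 CPM against 3073, 4759 and 3047 CPM. It did not overlap but missed the threshold (log2 0.75 ± 0.23, adjusted p = 0.189). Over all genes tested 59 (3.59%) lay above in every HLA→B6 mouse and 92 (5.6%) below.

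Of 18 genes of the response to interferon-γ only 3 had enough counts, and 0 passed by edgeR. Igtp, an interferon-inducible GTPase, was highest in HLA→B6 replicate 2 (564 CPM) and at 0 in replicate 3 (adjusted p = 0.393). It overlaps Irgm2, another gene of the list, on its strand. Irf1 had a log2 fold change of -0.27 (adjusted p = 0.850), and without HLA→B6 replicate 2 all 3 genes tested were positive (median 0.12). In cluster 0, with more cells, 20 of 3645 genes tested (0.549%) rose, and of this list 6 of 10 did, Igtp among them (log2 1.84, adjusted p = 0.00301).

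The aerocyte genes that mark the cluster did not pass between the groups. Car4 was at 6377, 4224, 4810, 5166 and 5966 CPM in B6→B6 and at 7074, 4086 and 3861 CPM in HLA→B6, so the groups overlapped (log2 -0.08, adjusted p = 0.930 by edgeR, and log2 0.04 and 0.07 without HLA→B6 replicate 2 or 3). Of 15 such genes 14 were tested and 0 passed, with 12 negative log2 fold changes and a median of -0.32. Nrp1 had the only non-overlapping groups, 718 to 1225 CPM against 535 to 704 (log2 -0.71 ± 0.23, adjusted p = 0.219).

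Genes of all endothelium lay lower in HLA→B6 as a group without any single call. Of 20 genes 15 were tested, 0 passed, and 14 had a negative log2 fold change (median -0.52), with the same count under DESeq2 and its size factors. The summed level of the 20 was 27190 to 29034 CPM in B6→B6 and 18468 to 20967 in HLA→B6, with no overlap. In cluster 0 that sum was 25156 to 26774 and 19532 to 25226 CPM. Cldn5, the claudin of endothelial tight junctions, was at 8702, 8160, 7008, 7226 and 8278 CPM against 5858, 5213 and 4559 CPM (log2 -0.58 ± 0.16, adjusted p = 0.117). Cdh5, Eng, Egfl7 and Ramp2 also did not overlap, and all 5 were picked with their values known. Over all 1643 genes tested 92 (5.6%) lay below in every HLA→B6 mouse, and 834 had a negative log2 fold change. In clusters 0 and 1, 10 and 12 of 19 tested genes of this list were negative (medians -0.02 and -0.17).

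Genes of BMP and TGF-β signaling, which act in vascular quiescence, showed a like pattern. All 9 tested of 18 had a negative log2 fold change (median -0.59) and 0 passed by edgeR. Acvrl1, the type I receptor ALK1, was at 2110, 2004, 1785, 1662 and 1999 CPM against 1088, 1084 and 1279 CPM (log2 -0.71 ± 0.19, adjusted p = 0.117). Id1, a target gene of the pathway, was at 894, 764, 1281, 1073 and 937 CPM against 512, 513 and 395 CPM (log2 -1.05 ± 0.26, adjusted p = 0.0728). The summed level of the 18 was 8309 to 9343 and 5170 to 6146 CPM. Without HLA→B6 replicate 1 the number of negative log2 fold changes was 8 of 9. The direction was not particular to cluster 2: of this list 12 of 13 tested genes were negative in cluster 0 (median -0.35) and 11 of 11 in cluster 1 (median -0.51). Acvrl1 and Id1 were picked with their values known.

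Of coagulation genes 4 of 12 were tested and F2r passed. Thbd, thrombomodulin, which turns thrombin against clotting, was at 1645, 1384, 1281, 1477 and 1312 CPM against 832, 901 and 977 CPM, with no overlap (log2 -0.63 ± 0.20, adjusted p = 0.203). Of junction and caveola genes 12 were tested, and of endothelial transcription factors 11, and 0 passed in either. All 9 tested mitochondrial transcripts had a positive log2 fold change (median 0.77) and 0 passed. Without the shallow HLA→B6 replicate 3 the median was 0.14, with 8 of 9 positive. The summed level of mitochondrial transcripts in cluster 2 ran from 1478 to 14682 CPM in B6→B6 and 4193 to 19840 in HLA→B6, so it varied widely within both groups. In clusters 0 and 1 all 10 tested mitochondrial transcripts were positive as well (medians 0.99 and 0.74).

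**Figure D5:**
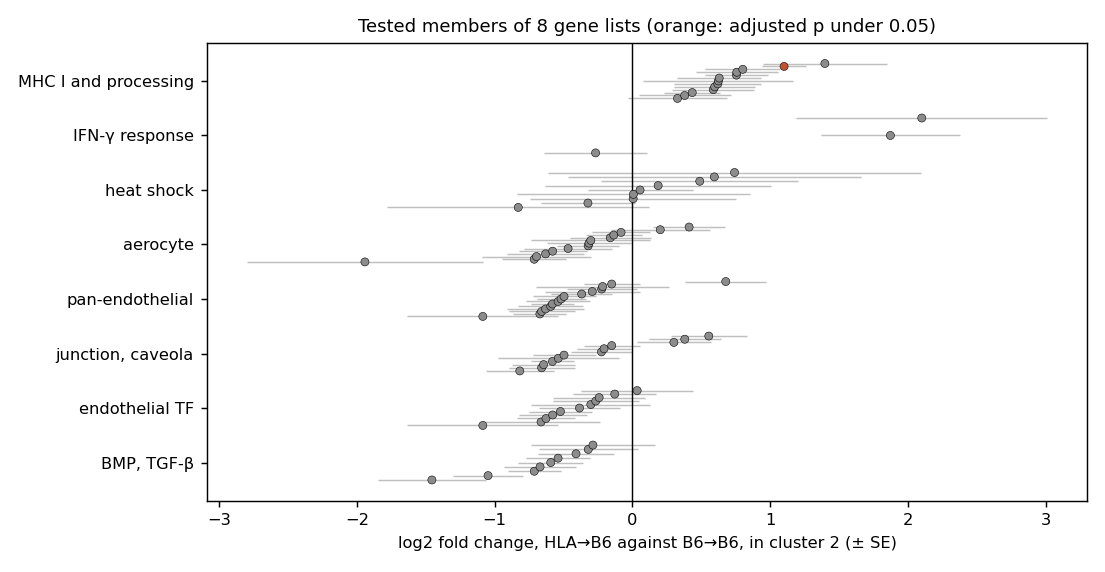
Log2 fold change ± SE, HLA→B6 against B6→B6, in cluster 2 for each tested member of 8 gene lists, with orange points past an adjusted p of 0.05. B2m at 1.10 is the single orange point. All 13 MHC I and processing genes lie right of 0 and all 9 BMP and TGF-β genes left of it.

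Whether HLA→B6 differed from B6→B6 more in cluster 2 than in the other capillary clusters was tested as an interaction. The mouse was a block. Against cluster 0, 8 of 2608 genes (0.307%) had a higher effect in cluster 2 and 1 (0.0383%) a lower one. Against cluster 1 it was 2 of 2590 (0.0772%) and 0 (0%), with 71 lower at an unadjusted p of 0.05 and 1 lower with no filter on low counts. Cd74 differed from both clusters (log2 7.50, adjusted p = 1.79e-06, and 6.74, adjusted p = 1.90e-09), with cluster 0 and 1 cells already carrying it at 7643 and 5067 CPM in the mean of 8 mice. Tinagl1 also differed from both (1.99 ± 0.41, adjusted p = 0.00312, and 2.12, adjusted p = 0.0125). H2-Eb1 (5.92, adjusted p = 0.00660) and H2-DMb1 (3.18, adjusted p = 0.0176) differed from cluster 0. In cluster 2 H2-Eb1 had 1 count in B6→B6 and 74 in HLA→B6, of which 7 remained without replicate 2. Its log2 value thus starts from 1 count. In CPM the 7 MHC II genes together averaged 40.5 in B6→B6 and 2476 in HLA→B6 in cluster 2. In cluster 0 they averaged 7417 and 21449, so the rise in CPM was larger there. The Cd74 interactions passed in all 12 settings run for each cluster. Mice of at least 20 cells and cells of at least 500 UMIs, with which Cd74 lost its call within cluster 2, were not among these settings. That of Tinagl1 with cluster 0 passed in 8 of 12 and was lost without B6→B6 replicate 2 or 3 or HLA→B6 replicate 2 (log2 1.82, 1.88 and 1.91), and that with cluster 1 in 7 of 12, lost when B6→B6 replicate 4 was left out (1.94) or when HLA→B6 replicate 1 or 2 was (2.04 and 2.11). H2-DMb1 was lost without B6→B6 replicate 2 or 3 or HLA→B6 replicate 2 (3.01, 2.87 and 2.08), and H2-Eb1 without any of B6→B6 replicates 2 to 5 or HLA→B6 replicate 2 (4.48 to 7.68).

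Cyp1a1, a monooxygenase induced through the aryl hydrocarbon receptor, had a higher HLA→B6 effect in cluster 2 than in cluster 0 by the interaction test. In cluster 0 it was at 86.8, 221, 109, 101 and 0 CPM in B6→B6 and at 27.9, 49.5 and 0 CPM in HLA→B6, a fall of 1.71 on the log2 scale (adjusted p = 0.0446). In cluster 2 its counts were 0, 0, 6, 8 and 0 against 5, 8 and 1, too few for a test within the cluster, and the groups overlapped in CPM. The interaction was 4.09 (adjusted p = 0.00792), and was lost when B6→B6 replicate 2 was left out (3.80) or HLA→B6 replicate 1 was (3.32). The only gene with a lower effect was Hba-a1, a hemoglobin gene that SoupX was also given, with 56 counts in cluster 2 of B6→B6 replicate 3 and 2 in all other mice together (log2 -5.80, adjusted p = 1.22e-07), and the call was lost without that mouse. For B2m the interaction with cluster 0 was 0.47 (adjusted p = 0.700), and H2-T22, Ifi47 and F2r did not differ past the threshold either.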

How the data were processed

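The data are UMI counts per gene and cell, which the authors made with Cell Ranger on mm10 and deposited as whole numbers, 17921 genes in 20778 cells, with a table of the mouse, cell type and cluster of each cell. They state filters on shallow barcodes and rare genes, removal of free RNA with SoupX, clustering with Seurat and naming with clustifyr. Cells and clusters were used as deposited and 0 columns of values were left unused.

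Counts of cluster 2, and of clusters 0 and 1, were summed per mouse with at least 10 cells. Levels are CPM of these sums. HLA→B6 was compared with B6→B6 by edgeR's quasi-likelihood F test (TMM, filterByExpr with a minimum count of 10, Benjamini-Hochberg adjustment over all genes tested), interactions with the mouse as a block, and shares of cells by an exact two-sided permutation test in which mice were reassigned in every possible way. Each replicate is a graft of its own in a mouse of its own. The cluster, the markers and the gene lists were chosen with earlier results of these data known. Named are all genes past an adjusted p of 0.05 whose groups do not overlap (at most 10 per direction), genes from the 12 largest differences per direction between clusters, the 5 largest interactions per direction, members of the aerocyte, general capillary, MHC and interferon-γ lists, up to 4 of each other list, and genes named as picked with their values known. Genes said to stand outside this rule are named as well. Motifs were searched on both strands of RefSeq promoters, and coordinates are from GENCODE vM21. Tests across genes ran in R 4.3.3 with DESeq2 1.42.0, edgeR 4.0.16 and limma 3.58.1. Python 3.11.15 served for the rest, with pandas 2.3.3, numpy 2.4.6, scanpy 1.11.5 (Scrublet), scipy 1.17.1 and, for plots, matplotlib 3.10.9. In simulated counts, all made with 1 set dispersion, edgeR made 0 calls with no gene changed, and with 4-fold changes 7.69% of its calls fell on unchanged genes. The interaction test called 34.2% of 4-fold changes.

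Alternatives were DESeq2, its size factors, at least 20 cells per mouse, cells of at least 500 UMIs, no filter on low counts, thinning, doublets or shared barcodes left out, linked libraries as a covariate, a replicate block and each mouse left out. Removal of cells over 5000 UMIs or with a leukocyte gene, and other denominators of the shares, were chosen after seeing the data. For interactions the alternatives were only DESeq2 size factors, no filter on low counts, shared barcodes left out and each mouse left out.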

Additional observations from a re-analysis of the deposited data

Results flagged for a closer look

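Among 18 sets of 5 B6→B6 values tested for a value far from the others (chance marks about 1 in 20 such sets), the CPM of Hba-a1 in cluster 2 was marked. All of its 56 counts came from replicate 3, so the gap to the nearest mouse, divided by the whole range, was 1, above the critical value of 0.71. Hba-a1 also had a lower HLA→B6 effect in cluster 2 than in cluster 0 by the edgeR interaction test (log2 -5.80).

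By that test the HLA→B6 effect was higher in cluster 2 than in cluster 0 for Cd74 (log2 7.50), H2-Eb1 (5.92), Cyp1a1 (4.09) and H2-DMb1 (3.18). The same held for Tinagl1 (1.99), Tcim (1.82), Plk2 (1.68) and Ppp1r2 (1.42). Tcim, Plk2 and Ppp1r2 stand outside the naming rule and are given because each was marked. In cluster 0 Tcim, a regulator of Wnt signaling, fell by 1.46 on the log2 scale in HLA→B6 (adjusted p = 0.0174). Plk2, a polo-like kinase, and Ppp1r2, an inhibitor of protein phosphatase 1, were highest in cluster 2 of HLA→B6 replicate 2, at 1150 and 1918 CPM, and without that mouse neither passed (adjusted p = 0.824 and 0.765). The call of Tcim was lost in 7 of the 12 settings run, with log2 values of 1.55 to 1.91 throughout. Against cluster 1 the differing genes were Cd74 (6.74) and Tinagl1 (2.12).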

How the results depend on the processing

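Genes higher and lower in HLA→B6 in cluster 2 numbered 6 and 0. They were 8 and 2 with DESeq2, 10 and 3 with at least 20 cells per mouse (which drops HLA→B6 replicate 1 as well as B6→B6 replicate 5), 7 and 3 without cells that held a leukocyte gene, 12 and 1 with the linked libraries as a covariate, 46 and 7 with no filter on low counts, and 2 higher with mice thinned to equal cell numbers. Leaving out each mouse gave 2 to 14 higher (2 when HLA→B6 replicate 2 was dropped, 14 for HLA→B6 replicate 3 and 3 for B6→B6 replicate 4) and 0 to 7 lower (7 for B6→B6 replicate 5, 4 for HLA→B6 replicate 3). With the replicate block there were 10 and 1. The numbers do not pair the mice: the deviations of same-numbered mice correlated by 0.168, 0.0492 and -0.155, and 1 of 3 HLA→B6 mice correlated best with its own number. H2-T22 (adjusted p = 0.074) and F2r (0.12) missed the threshold with that block, as did Ifi47 (log2 1.54). For the interaction with cluster 0, 8 and 1 genes became 13 and 4 with DESeq2 size factors, 3 and 3 with no filter, and 1 to 12 and 0 to 7 without single mice. The higher count was 1 when B6→B6 replicate 2 or 3 was dropped, 5 for B6→B6 replicate 4 and 3 for HLA→B6 replicate 2, and dropping HLA→B6 replicate 3 gave 12 and 7. For cluster 1, 2 and 0 became 1 higher without shared barcodes, 1 lower with no filter, and 1 to 2 and 0 without single mice (1 when either B6→B6 replicate 4 was dropped or HLA→B6 replicate 2 was). Cells thinned to 500 UMIs left 254 genes apart from cluster 0 (582 without thinning) and 201 from cluster 1 (530). The difference in shares was -15.2 to -11.2 percentage points of structural cells, -3.14 to -1.76 of all cells (-1.76 without B6→B6 replicate 3) and -20.9 to -15.1 of endothelial clusters without single mice, a design that cannot pass (exact p = 0.0571 or 0.0952 at best). Without clusters 4, 6, 7 and 10 in the denominator the share of all cells differed by -2.72 (exact p = 0.0714), and against cluster 0 alone by -31.6 (exact p = 0.0714). The causes were not tested. The median log2 fold change over all genes was -0.01, and 0.01 with DESeq2 size factors. Limits are the 14 cells of HLA→B6 replicate 1, the shallow replicate 3 and 3 rejecting grafts, of which replicate 2 gave 136569 of 210801 UMIs.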

Other observations

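Gdf15, a stress-induced cytokine of the TGF-β family, was too low in cluster 2 for the test and was picked with its values known. Its counts were 6, 0, 2, 1 and 1 in B6→B6 and 16, 41 and 4 in HLA→B6, that is 71.5, 0, 5.90, 3.04 and 31.2 CPM against 512, 300.2 and 93.0 CPM. The groups did not overlap. In clusters 0 and 1 it was at most 14.9 and 6.95 CPM in any mouse.

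Cryab, a small heat shock protein, and Nbl1, a secreted BMP antagonist, were higher in HLA→B6 when the cells over 5000 UMIs were left out and when the cells with a leukocyte gene were left out. Dhrs3, Tspan18 and Pllp were lower by edgeR in the second of these 2 settings and not in the first. These genes did not pass with all cells.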
